A study of Homo sapiens with 4 samples.

Results

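The genes described here are the CDK inhibitors of the CIP/KIP family (CDKN1A, CDKN1B and CDKN1C) and the INK4 family (CDKN2A, CDKN2B, CDKN2C and CDKN2D), together with MTAP, which lies beside CDKN2A and CDKN2B on chromosome band 9p21. They were taken as every probe set that the array annotation gives to exactly 1 of these 8 genes. That rule found 20 of 54613 probe sets that are not controls, and they read 7 genes. CDKN2C had no such probe set and is not analysed here. The arrays came from H1299 and A549, human non-small cell lung cancer lines, each transfected with hMOF siRNA or with scramble siRNA by lipofection. The siRNA target, hMOF, is the histone H4 acetyltransferase encoded by KAT8. There were 4 arrays, 1 each for H1299 with hMOF siRNA, H1299 with scramble siRNA, A549 with hMOF siRNA and A549 with scramble siRNA. All were grown in DMEM with 10% fetal bovine serum. A549 is known for a homozygous deletion that takes in CDKN2A. DNA copy number was not measured on these arrays.

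CDK inhibitors are the brakes of the cell cycle engine. INK4 proteins bind CDK4 and CDK6 and keep D-type cyclins from activating them, while CIP/KIP proteins bind whole cyclin-CDK complexes, above all those of CDK2. Both act upstream of RB, which holds E2F transcription factors in check. CDKN2A also gives rise, from a separate first exon, to ARF, which blocks the ubiquitin ligase MDM2. MTAP is an enzyme of methionine salvage with no part in CDK inhibition, and it is often lost together with its neighbours in tumours.

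Signals are linear MAS5 intensities. Differences between arrays are given as log2 of signal plus an offset of 29.06, which shrinks ratios of dim probe sets. Probe sets were tested where their mean signal over the 4 arrays reached 78.1, and 27307 did. Among them were 14 of the 20 member probe sets, at least 1 for each of the 7 genes. Tests used limma on all tested probe sets, with Benjamini-Hochberg adjustment. Its SEs and intervals use a variance drawn towards that of all tested probe sets (4.82 prior against 1 residual degree of freedom). They therefore rest only in part on a probe set's own spread. No group was replicated, so the lines served as the only repeats of the siRNA comparison and the siRNAs as the only repeats of the comparison between lines. Nothing in the labels says that cultures were repeated, and a p value here reflects nothing but the spread of these arrays. Since RNA was taken from whole cultures, fewer cells expressing a gene and less RNA per cell cannot be told apart.

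The arrays had medians of 73.3 to 75.4. Log2 signals correlated at r = 0.983 between the H1299 arrays, at 0.988 between the A549 arrays and at 0.889 to 0.9001 between lines, across probe sets, which are not independent. As a check of the labels, KAT8 (221820_s_at) gave 61.8 with hMOF siRNA against 241 with scramble siRNA in H1299, and 106 against 402 in A549 (log2 difference -1.62, SE 0.11, limma adjusted p = 0.0115). Epithelial markers, 6 of 6 with a probe set, summed to 2821 and 3740 in H1299 (hMOF and scramble siRNA) and to 26546 and 28772 in A549. The cadherin gene CDH1 was at 7.61 and 8.04 in H1299 and at 1562 and 1535 in A549. Lung epithelial markers, 5 of 6, summed to 968 and 1041 in H1299 and to 1010.5 and 1073.5 in A549. Of these SFTPB, at 702 to 798, made up most, SFTPC and NAPSA were also tested, and NKX2-1 and SLC34A2 lay below the signal minimum. Mesenchymal markers, 4 of 4, summed to 19336 and 19891 in H1299 and to 25670 and 23812 in A549. VIM and ZEB1 were the higher in H1299, and FN1 and CDH2 the higher in A549. Blood markers, 4 of 5 with a probe set, summed to 306 to 352, with PTPRC and MS4A1 below the minimum. Endothelial markers, 3 of 3, summed to 340 to 380, with CDH5 below it. No marker was at 0, and genes that a lung cancer line should lack gave a guide to dim signal, with a median of 45.35 over 27 probe sets of 10 genes. The guide's 90th percentile was 169 and its maximum 490, and its genes CD3E, HBB and MBP reached the signal minimum.

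The clearest difference among these genes lay between the lines and on 9p21. CDKN2A, CDKN2B and MTAP were bright in H1299 and near or below the level of the guide genes in A549 on 6 of their 11 probe sets. RefSeq (GRCh38.p14) gives CDKN2A separate starts for ARF and for the CDK4 inhibitor p16INK4a, and gives MTAP and CDKN2B a start each. The 250 bases before each start are shown because each gene had a tested probe set far brighter in H1299. Whether these bases bear on that difference was not tested. They are written in the gene's own direction, with matches to the searched motifs in capitals.
MTAP, chr9:21802386-21802635, plus strand: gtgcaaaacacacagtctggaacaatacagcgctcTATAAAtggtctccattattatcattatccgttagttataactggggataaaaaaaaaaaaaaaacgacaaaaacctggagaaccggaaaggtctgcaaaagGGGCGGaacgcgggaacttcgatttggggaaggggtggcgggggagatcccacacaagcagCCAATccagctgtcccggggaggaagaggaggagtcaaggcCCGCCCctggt
CDKN2A, distal start, chr9:21995325-21995574, minus strand: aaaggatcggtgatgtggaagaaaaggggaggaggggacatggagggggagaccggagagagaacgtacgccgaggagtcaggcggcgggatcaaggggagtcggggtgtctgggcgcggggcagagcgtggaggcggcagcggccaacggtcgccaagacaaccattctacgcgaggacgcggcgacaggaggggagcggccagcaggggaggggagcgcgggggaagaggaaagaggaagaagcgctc
CDKN2A, proximal start, chr9:21974858-21975107, minus strand: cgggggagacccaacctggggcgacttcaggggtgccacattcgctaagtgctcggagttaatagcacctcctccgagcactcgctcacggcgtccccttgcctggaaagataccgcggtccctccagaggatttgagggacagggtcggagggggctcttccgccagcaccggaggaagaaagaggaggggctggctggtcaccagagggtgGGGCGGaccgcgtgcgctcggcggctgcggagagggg
CDKN2B, chr9:22009306-22009555, minus strand: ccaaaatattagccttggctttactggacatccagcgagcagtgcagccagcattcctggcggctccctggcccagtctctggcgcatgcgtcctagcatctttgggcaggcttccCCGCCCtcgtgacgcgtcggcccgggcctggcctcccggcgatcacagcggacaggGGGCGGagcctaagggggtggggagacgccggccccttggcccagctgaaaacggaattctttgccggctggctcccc
The motifs searched on both strands were the GC box GGGCGG, the CCAAT box CCAAT, the TATA box TATAAA and the E-box CACGTG. Of 35116 promoter windows of this length, 42.6% held the GC box, 32% the CCAAT box, 10.7% the TATA box and 6.34% the E-box. MTAP held 2 GC boxes, 1 CCAAT box and 1 TATA box. The proximal CDKN2A window, before p16INK4a, held 1 GC box and CDKN2B held 2, while the distal CDKN2A window, before ARF, held no match to any of these letters. GC content was 66.8% in each CDKN2A window and 66.4% for CDKN2B, against a median of 58% over all windows, below which MTAP lay. A match is a description of letters and no evidence of binding.

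CDKN2A encodes p16INK4a and ARF. Its probe set 207039_at was at 946 with hMOF siRNA and 1099.9 with scramble siRNA in H1299, against 20.5 and 20.4 in A549. On both A549 arrays the signal was below the offset. The difference between lines was 4.40 on the log2 scale (SE 0.12, limma adjusted p = 6.95e-06). Probe set 209644_x_at, of a kind (_x_at) that may also pick up related transcripts, was at 1176 and 1317 in H1299 and at 46.5 and 33.5 in A549 (4.21, SE 0.14, adjusted p = 1.31e-05). Both probe sets reached the signal minimum only through their H1299 arrays, so these p values are descriptions. The third CDKN2A probe set behaved differently, with all its signals under the guide genes' 90th percentile of 169. Probe set 211156_at was at 87.4 and 88.6 in H1299 and at 80.3 and 83.6 in A549, and the lines did not differ by the test (0.08, 95% interval -0.20 to 0.35, adjusted p = 0.610).

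CDKN2B encodes p15INK4b, an INK4 inhibitor known to be induced by TGF-beta. Its probe set 236313_at was at 689 with hMOF siRNA and 576 with scramble siRNA in H1299, against 10.5 and 10.3 in A549. The A549 signals were under the offset (log2 difference 4.06, SE 0.12, limma adjusted p = 8.97e-06). This probe set reached the signal minimum only through its H1299 arrays, so the p value is a description. The other CDKN2B probe set, 207530_s_at, was too dim to be tested, with 101 and 59.5 in H1299 and 52.7 and 42.7 in A549, again higher in H1299 on both siRNAs.

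MTAP cleaves methylthioadenosine, a by-product of polyamine synthesis, and its 6 probe sets split 3 ways. Probe set 231984_at was at 579.6 and 680.3 in H1299 (hMOF and scramble siRNA) and at 8.31 and 9.19 in A549 (log2 difference 4.12, SE 0.12, limma adjusted p = 8.05e-06). Probe set 204956_at was at 185 and 176 in H1299 and at 5.49 and 8.09 in A549 (2.55, SE 0.12, adjusted p = 3.46e-05). For 216685_s_at the signals were 165 and 178 in H1299 and 21.2 and 24.4 in A549 (1.95, SE 0.11, adjusted p = 7.83e-05). These 3 were all higher in H1299 and under the offset on both A549 arrays. They reached the signal minimum only through their H1299 arrays, so their p values are descriptions. Probe set 211363_s_at ran the other way, with 108 and 101 in H1299 and 227 and 249 in A549 (95% interval of the difference -1.29 to -0.70, adjusted p = 0.00118). The remaining probe sets, 211364_at and 217134_at, were below the signal minimum, at 60.7 and 60.4 in H1299 with 61.0 and 48.1 in A549, and at 29.6 and 26.8 in H1299 with 36.7 and 31.8 in A549. The probe set annotation joins all 6 to MTAP, and which transcript each reads was not tested.

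**Figure D1:**
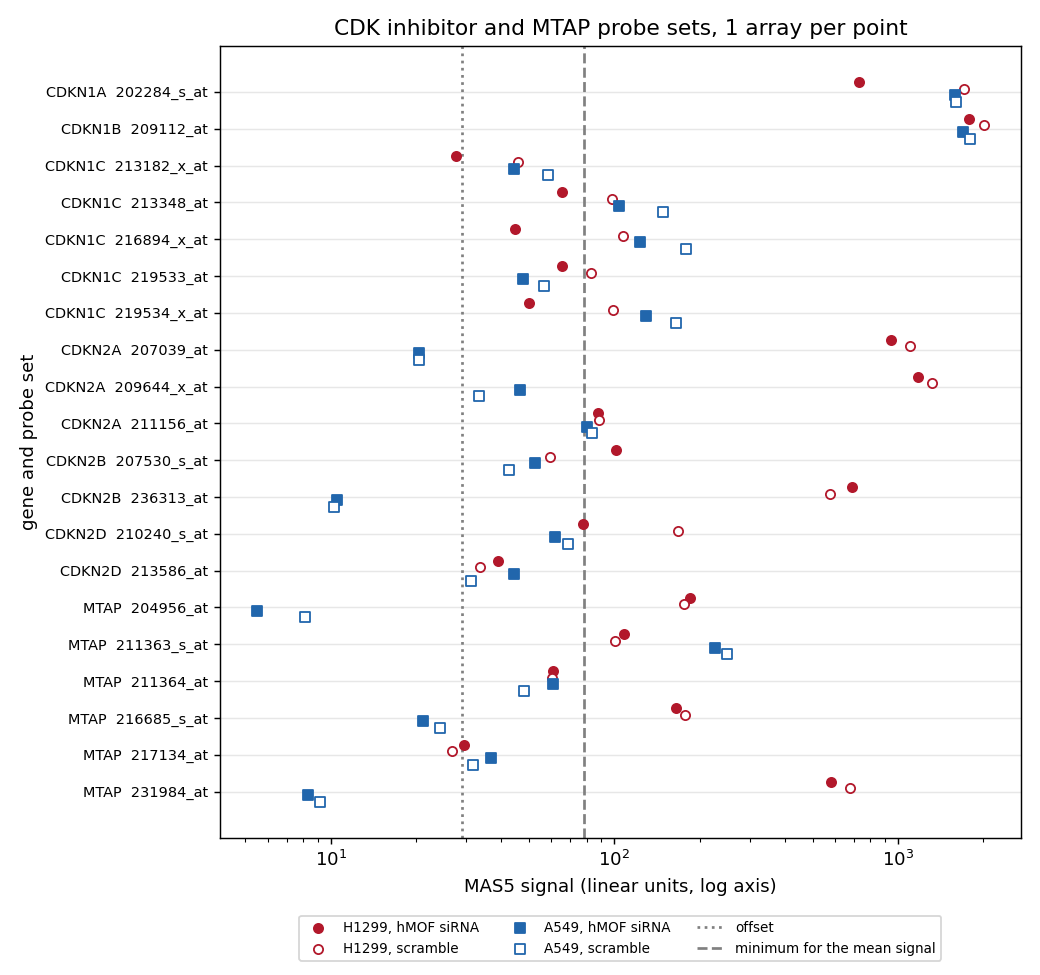
MAS5 signal (log axis) of each of the 20 member probe sets, 1 point per array, with H1299 as circles, A549 as squares, hMOF siRNA filled and scramble siRNA open. The dotted line is the offset of 29.06 and the dashed line the minimum for the mean signal, 78.1. H1299 and A549 points lie far apart for CDKN2A (207039_at, 209644_x_at), CDKN2B (236313_at) and MTAP (231984_at, 204956_at, 216685_s_at), and the H1299 hMOF siRNA point of CDKN1A lies left of its other 3.

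Of the 8 tested probe sets of CDKN2A, CDKN2B and MTAP, 5 were below the offset on both A549 arrays and 0 on both H1299 arrays. Their log2 differences therefore depend on the offset. That of MTAP 204956_at was 2.55 with the offset and 4.76 with none. Across all 14 tested member probe sets, limma called 7 towards H1299, where 25.3% of all tested probe sets were called that way. It called 4 towards A549, against 24.6% of all, and these were the 3 of CDKN1C and MTAP 211363_s_at. Passing the signal minimum was itself tied to this contrast, since 7 of the 14 reached it only through their H1299 arrays. The count and the p values of those 7 are thus descriptions. CDKN1C 216894_x_at and 219534_x_at, called towards A549, reached the minimum only through their A549 arrays and are likewise descriptions. Differences of at least 8-fold (log2 of 3) towards H1299 were found for 0.582% of all tested probe sets, and CDKN2A 207039_at and 209644_x_at, CDKN2B 236313_at and MTAP 231984_at were among them.

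Most tested neighbouring genes showed another direction. Of 28 genes listed around CDKN2A, 25 had a probe set with 1 gene, in the order MLLT3 to ELAVL2. Genes below the signal minimum were not tested. On the MTAP side, every tested gene other than IFNW1 was called towards A549, as were 3586 of 12830 genes read by 1 probe set each. Passing the signal minimum was tied to that direction for IFNE and for KLHL9 probe set 213117_at, which reached it only through their A549 arrays. Their values are thus descriptions. MIR31HG, the host transcript of a microRNA, was at 74.0 and 106 in H1299 (hMOF and scramble siRNA) and at 553 and 533 in A549 (log2 difference -2.28, limma adjusted p = 0.000113). IFNE, an interferon gene, was at 51.0 and 66.05 in H1299 and 191.5 and 251 in A549 (-1.51, adjusted p = 0.000212). KLHL9, an adaptor of a ubiquitin ligase, was at 410.4 and 378 in H1299 and 1507 and 1406 in A549 on probe set 213233_s_at (-1.81, adjusted p = 0.000102). MLLT3, a subunit of the super elongation complex, differed by -1.18 and -0.95 on its 2 tested probe sets, and FOCAD by -0.77. The tested genes on that side, other than IFNW1, were thus brighter in A549, while 6 probe sets of MTAP, CDKN2A and CDKN2B were brighter in H1299.

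IFNW1 did not differ by the test (-0.23, limma adjusted p = 0.165). Apart from IFNE and IFNW1, the interferon genes of the cluster were below the signal minimum, and the family members are near-identical, so their probe sets cannot be told apart with certainty. Beyond CDKN2B, DMRTA1 was at 65.0 and 73.9 in H1299 and 63.9 and 61.0 in A549, and ELAVL2 at 15.2 to 30.0 in H1299 and 23.1 to 28.1 in A549, all below the minimum. CDKN2B-AS1, the antisense transcript ANRIL, was at 19.0 and 13.7 in H1299 and 12.0 and 14.9 in A549. HACD4 had no tested probe set, and its probe set 244050_at was at 6.10 and 7.31 in H1299 and 137 and 116 in A549.

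**Figure D2:**
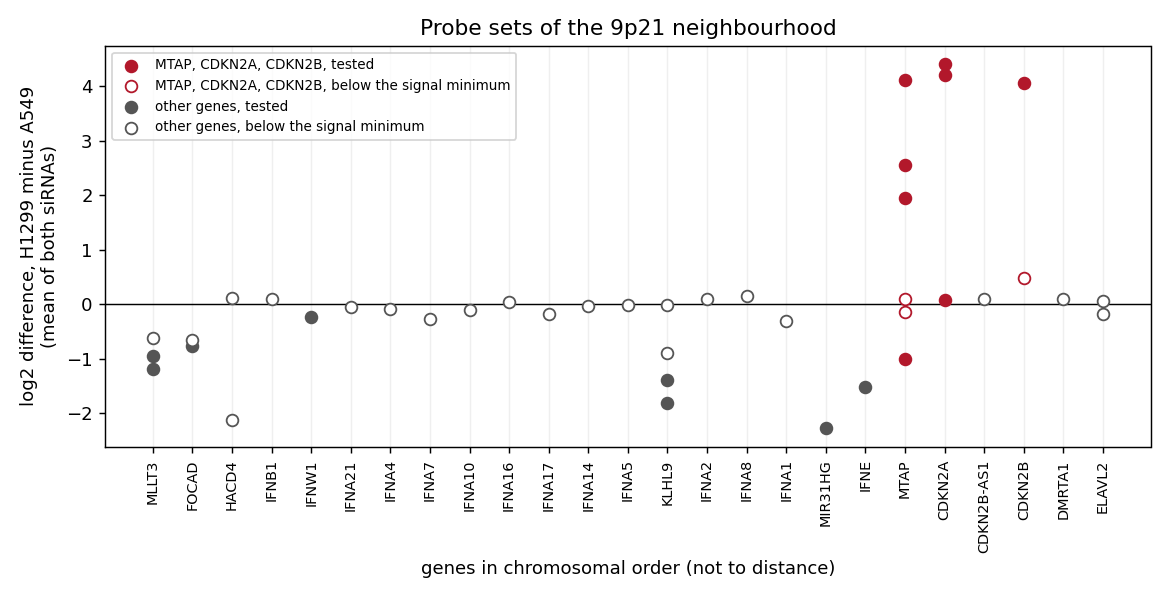
Log2 difference, H1299 minus A549, averaged over hMOF and scramble siRNA, for each probe set of the 25 genes around CDKN2A that have one, in chromosomal order and not to distance. Filled points were tested and open ones were below the signal minimum. Differences are below 0 for MLLT3, FOCAD, KLHL9, MIR31HG and IFNE and reach 4.40 at CDKN2A, while MTAP holds values from -0.9996 to 4.12.

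The other inhibitors differed less between lines. CDKN1C, which encodes p57KIP2 and is imprinted, was lower in H1299 on its 3 tested probe sets. For 216894_x_at the difference was -0.83 (limma adjusted p = 0.00491), for 219534_x_at -0.80 (0.0050) and for 213348_at -0.48 (0.0145). These calls were lost when siRNA was not a block (adjusted p = 0.151, 0.0976 and 0.184), as was that of CDKN2D. CDKN1C 216894_x_at and 219534_x_at reached the signal minimum only through their A549 arrays, so their differences and p values between lines are descriptions. A CDKN1C probe set below the signal minimum, 219533_at, ran the other way, at 65.5 and 82.6 in H1299 and 47.7 and 56.6 in A549. CDKN2D, which encodes p19INK4d, had a difference of 0.62 (SE 0.20, adjusted p = 0.0422). It reached the signal minimum only through its H1299 arrays, so this value is a description. Its difference was 0.23 on the hMOF siRNA arrays and 1.01 on the scramble arrays. With an offset of 56.45 in place of 29.06 its adjusted p was 0.0525, and 0.0601 with 1 probe set per gene. CDKN1A differed by -1.09 between lines with hMOF siRNA and by 0.09 with scramble siRNA (mean -0.50, 95% interval -1.17 to 0.16, adjusted p = 0.174). CDKN1B did not differ by the test (0.12, 95% interval -0.16 to 0.40, adjusted p = 0.438).

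The next comparison asked whether CDK inhibitor transcripts changed with hMOF siRNA. None of the 14 tested probe sets passed limma over both lines, where 5.95% of all tested probe sets did, 1.93% higher and 4.01% lower. At an unadjusted p under 0.05 there were 4, all below 0, in CDKN1C and CDKN2D, or 4 of 14 where 23.3% of all tested probe sets reached that level. Signal was lower with hMOF siRNA in both lines for 9 of the 14, against 36.6% of all tested probe sets. The 14 include several probe sets of 1 gene, which share their target. Their median log2 ratio was -0.19 in H1299 and -0.08 in A549, against -0.01 and -0.03 over all tested probe sets. Within a line, at a size of 2-fold, 1 probe set was lower in H1299, where 1.85% of all were. None was higher in H1299 (1.14% of all), lower in A549 (0.967%) or higher in A549 (0.656%).

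The probe set past 2-fold was that of CDKN1A, which encodes p21CIP1, an inhibitor of cyclin-CDK2. Its 250 bases before the RefSeq start are shown because it was the inhibitor past 2-fold in H1299. Without the offset CDKN1C 216894_x_at and CDKN2D 210240_s_at were past it too, with 41.5% and 46.2% of the scramble signal left. The share of all tested probe sets past 2-fold is given only with the offset, so it is no background for these. GC boxes are in capitals.
CDKN1A, chr6:36678464-36678713, plus strand: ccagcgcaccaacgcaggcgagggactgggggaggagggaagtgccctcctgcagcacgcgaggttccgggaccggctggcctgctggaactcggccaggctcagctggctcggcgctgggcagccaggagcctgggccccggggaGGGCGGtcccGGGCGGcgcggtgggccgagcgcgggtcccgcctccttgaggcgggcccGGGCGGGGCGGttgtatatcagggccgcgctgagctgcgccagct
The window held 4 GC boxes, the last 2 of them overlapping, and no CCAAT box, TATAAA or CACGTG, with a GC content of 76.4%. CDKN1A signal (202284_s_at) was 731 with hMOF siRNA and 1707 with scramble siRNA in H1299, and 1594 and 1606 in A549. The H1299 hMOF siRNA array stood apart from the other 3. The signal left was 42.8% in H1299 and 99.3% in A549. On the log2 scale the ratio was -1.19 in H1299, at or below which lay 1.04% of all tested probe sets, and -0.01 in A549. Over both lines the mean was -0.60 ± 0.83 (SD, n = 2 lines). The limma SE, from a variance drawn towards that of all tested probe sets, was 0.27 (limma adjusted p = 0.254). With 1 pair of arrays per line, the difference between the lines' ratios was not tested. The ratio comes from a single probe set and a single array of H1299 with hMOF siRNA.

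CDKN1B encodes p27KIP1, the inhibitor whose protein is marked for degradation by the SKP2 ligase. Its signal was 1777 with hMOF siRNA and 2013 with scramble siRNA in H1299, and 1692.5 and 1791 in A549. All 4 arrays lay close together. The mean log2 difference was -0.13 (95% interval -0.41 to 0.15, limma adjusted p = 0.577), so this interval does not reach a 2-fold change in either direction.

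The lowest mean log2 ratio with hMOF siRNA among the 14 tested member probe sets was that of CDKN1C 216894_x_at. Probe set 216894_x_at was at 44.7 with hMOF siRNA and 108 with scramble siRNA in H1299, and at 123 and 179 in A549 (log2 ratios -0.89 and -0.45, mean -0.67, SE 0.14, limma adjusted p = 0.0558). Probe set 219534_x_at was at 49.9 and 99.0 in H1299 and at 129 and 165 in A549 (mean -0.50, SE 0.14, adjusted p = 0.102). Probe set 213348_at was at 65.7 and 97.9 in H1299 and at 104 and 148 in A549, and its ratio was -0.42 in each line (SE 0.11, adjusted p = 0.0909). Within each line the hMOF siRNA array was the lower one at all 5 CDKN1C probe sets, the 2 below the signal minimum included. Those were 213182_x_at, at 27.6 and 45.9 in H1299 and 44.25 and 58.6 in A549, and 219533_at. The 5 share their target, and 3 of them are _x_at probe sets. Of all tested probe sets, 36.6% were lower with hMOF siRNA in both lines. Signals were low throughout, so the offset bears on these ratios. Only 216894_x_at in A549 with scramble siRNA, at 179, was above the guide genes' 90th percentile of 169. With no signal filter, and with an intensity trend in eBayes, 216894_x_at passed the test (adjusted p = 0.0466 and 0.0435).

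CDKN2D (210240_s_at) was at 77.55 with hMOF siRNA and 168 with scramble siRNA in H1299, and at 61.7 and 68.8 in A549. The H1299 scramble array stood above the other 3, but all were under the guide genes' 90th percentile of 169. The log2 ratios were -0.88 and -0.11 (mean -0.50, SE 0.20, limma adjusted p = 0.204). Its other probe set, 213586_at, was too dim to be tested, with 38.8 and 33.7 in H1299 and 44.4 and 31.3 in A549, with hMOF siRNA the higher in both lines. For the tested probe sets of the 9p21 genes the siRNA ratios stayed under 2-fold in both lines. In H1299, CDKN2A was at -0.21 and -0.16 on 207039_at and 209644_x_at, CDKN2B at 0.25 on 236313_at, and MTAP between -0.22 and 0.08 on its 4 tested probe sets. The dimmer CDKN2B probe set 207530_s_at, not tested, was at 0.56 in H1299 and 0.19 in A549. Adjusted p over both lines lay between 0.577 and 0.958 for CDKN1B and the tested probe sets of these 3 genes. The A549 ratios of those under the offset carry little information.

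**Figure D3:**
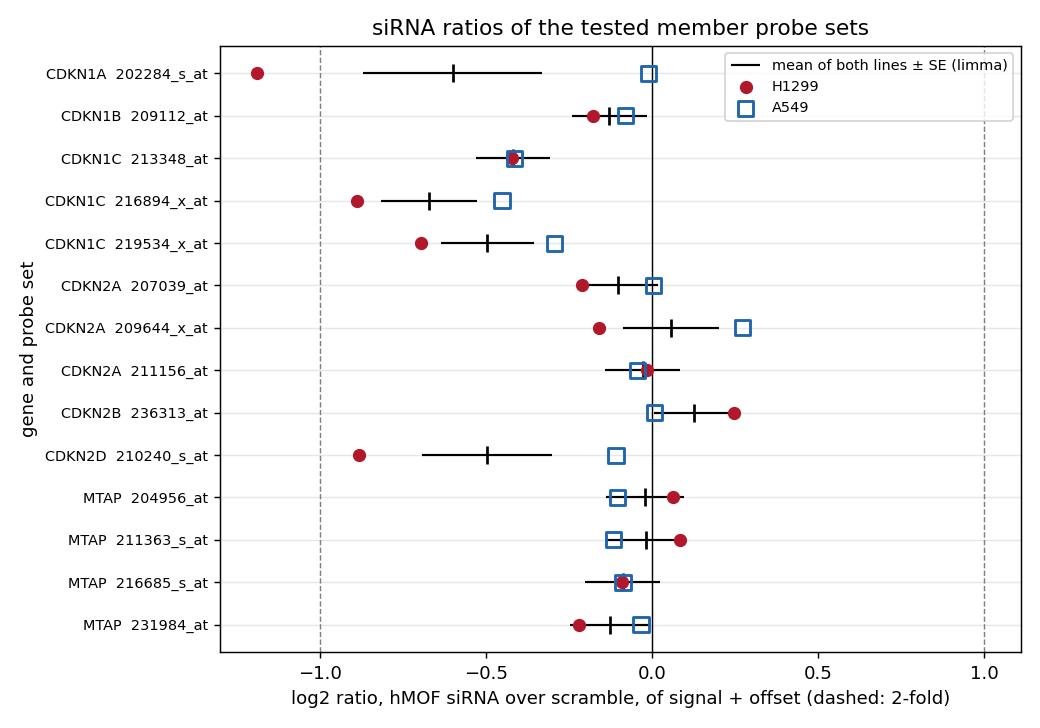
Log2 ratio of signal plus offset, hMOF siRNA over scramble, for the 14 tested member probe sets, with H1299 as circles, A549 as open squares and the limma mean of both lines ± SE as a black bar. Dashed lines mark 2-fold. CDKN1A in H1299, at -1.19, is the only point past a dashed line, and the CDKN1C probe sets lie below 0 in both lines.

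The rest of the pathway was read from lists, with 1 probe set per gene, that of highest mean signal. Over 12830 genes so represented, 294 rose and 584 fell with hMOF siRNA in the fit of all 27307 probe sets, against 149 and 309 where these genes alone were fitted. The median ratio was -0.01 in H1299 and -0.02 in A549. Among the cyclins and CDKs that the inhibitors target, 14 of 15 were tested and none rose or fell. Their median was 0.20 in H1299 and -0.11 in A549. The INK4 target CDK6 was at 4662 with hMOF siRNA and 3434 with scramble siRNA in H1299, and at 2531 and 1761.5 in A549 (log2 ratios 0.44 and 0.52, limma adjusted p = 0.0700). CDK4 was at 0.05 and 0.11 (adjusted p = 0.743) and CDK2, the main CIP/KIP target, at 0.13 and -0.33 (0.763).

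Among 13 subunits and partners of the ligases that degrade CIP/KIP proteins, 1 fell and none rose. It was SKP2, the subunit that recognises p27KIP1 (203625_x_at), with signals of 308 and 1385 in H1299 (hMOF and scramble siRNA) and 324 and 1163 in A549. Its log2 ratios were -2.07 in H1299 and -1.76 in A549 (limma adjusted p = 0.0115). Of 13 RB family and E2F genes 3 fell, namely TFDP2, a dimer partner of E2F (-1.35 in H1299, -0.78 in A549, adjusted p = 0.0264), E2F5, a repressor E2F (-0.69, -0.68, 0.0316), and E2F7, an atypical repressor (-0.54, -0.75, 0.0412). Only 1 of 4 tested TFDP2 probe sets and 1 of 2 of E2F7 were called, and the highest of the others were at 0.03 and 0.01. Among 19 tested regulators of CDK inhibitor transcription, 3 fell and none rose. These were ETS1 (-1.49, -1.27, adjusted p = 0.0115), FOXO3, a known activator of CDKN1B (-1.27, -0.75, 0.0273), and SMAD3, which carries TGF-beta signals to CDKN2B (-0.91, -0.52, 0.0438). All tested probe sets of ETS1 and FOXO3 were called, and 1 of 3 of SMAD3. Fitted with 1 probe set per gene, E2F7, FOXO3 and SMAD3 missed the threshold (adjusted p = 0.0618, 0.0504 and 0.0662). None of 6 tested genes of the ARF and MDM2 arm passed the test. MDM2, which ARF inhibits, was at -0.63 in H1299 and -0.22 in A549 on its listed probe set 225160_x_at (adjusted p = 0.144). On another, 217542_at, MDM2 was at 55.1 with hMOF siRNA and 493.5 with scramble siRNA in H1299, and at 88.8 and 93.1 in A549 (adjusted p = 0.216). The remaining tested MDM2 probe sets did not repeat a fall of that size, with H1299 log2 ratios from -0.82 (229711_s_at) to 0.22 (244616_x_at). Of 16 tested genes around MTAP in methionine salvage, the spermidine synthase gene SRM fell (-0.86, -0.59, adjusted p = 0.0342, and 0.0551 with 1 probe set per gene).

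**Figure D4:**
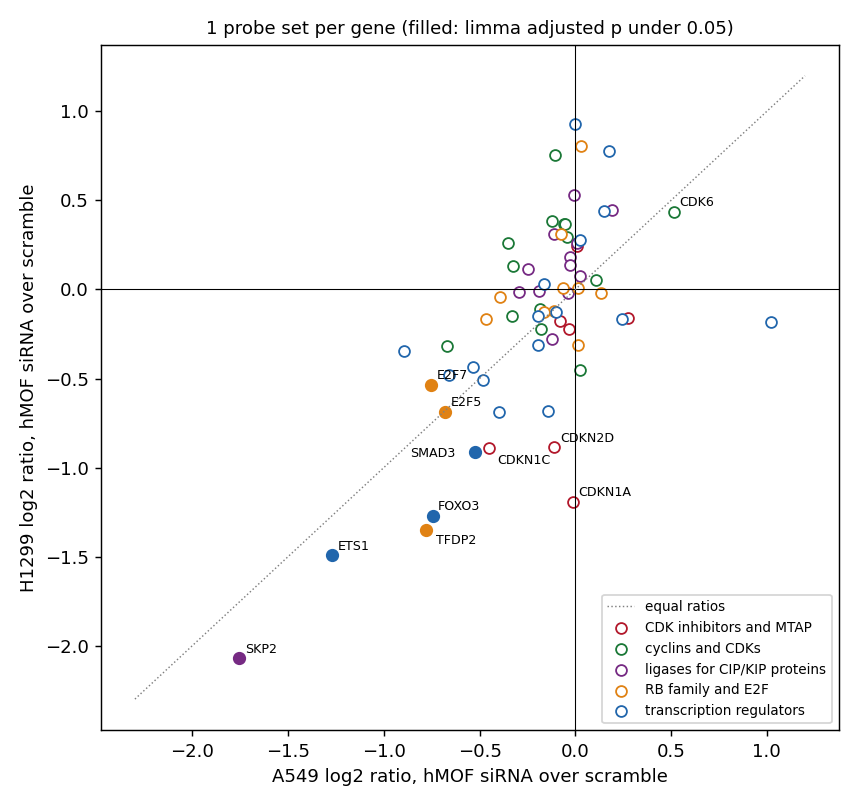
Log2 ratio with hMOF siRNA over scramble in H1299 (vertical) against A549 (horizontal), 1 probe set per gene, for the CDK inhibitors with MTAP and for 4 lists of their targets, ligases, downstream factors and regulators. Filled points passed limma over both lines. SKP2 lies lowest at -2.07 and -1.76, and CDKN1A lies at -1.19 and -0.01.

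Between the lines, limma called 3291 of the 12830 genes towards H1299 and 3586 towards A549. For the lists, calls towards H1299 and A549 numbered 7 and 3 of 14 cyclins and CDKs, 2 and 2 of 13 ligase genes, 7 and 1 of 13 RB and E2F genes, 8 and 3 of 19 regulators, 1 and 3 of 6 ARF arm genes and 8 and 1 of 16 methionine salvage genes. CDK6 was called towards H1299 (log2 difference 0.91, adjusted p = 0.00135) and CDK4 towards A549 (-0.39, 0.0313). KLF4, a regulator of CDKN1A, was higher in H1299 (log2 difference 2.29, limma adjusted p = 9.98e-05), as was ETS1 (2.05, 8.64e-05, and 0.0846 without the siRNA block). ETS2 was higher in A549 (-2.14, 0.00153), but its probe set reached the signal minimum only through the A549 arrays, so this is a description. Cyclins of CDK2 differed in direction, with CCNE1 higher in A549 (-1.41, 0.00026) and CCNE2 and CCNA2 higher in H1299 (1.35, 0.000968 and 0.49, 0.0245). CDC25A and CDK7 were higher in H1299 (1.38 and 1.37). CDC25A differed on 1 of its 2 tested probe sets. E2F7, E2F5 and E2F2 were higher in H1299 (1.35, 1.18 and 1.01), E2F5 with an adjusted p of 0.0638 without that block, and the other E2F7 probe set was higher in A549 (-0.54). PCNA, which brings CDKN1A protein to its ligase, was higher in A549 (-0.82), and RNF123 and RBX1 were higher in H1299 (0.77 and 0.48). In the ARF arm, USP7 and MDM4 were higher in A549 (-1.003 and -0.54), MDM4 with an adjusted p of 0.052 without that block, and TRIP12 higher in H1299 (0.93). USP7 was called on 2 of 3 probe sets, of which 1 was at 0.09. RIOK1 and WDR77, partners of PRMT5, and SMS, the spermine synthase gene, were higher in H1299 (1.21, 0.89 and 0.90), WDR77 on 1 of 2 probe sets.

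Genes whose pattern over the 4 arrays was nearest to that of CDKN1A were found by Euclidean distance between mean-centred log2 values, among 12829 genes, with a median distance of 1.04. The nearest were MAML2 (0.114), FUCA1 (0.230), GPAT4 (0.244), NAV2 (0.247) and ORAI2 (0.265). These genes were chosen by that likeness on the same arrays, so their ratios only describe the choice. Each was lower with hMOF siRNA in H1299, by log2 ratios of -1.05, -0.99, -0.90, -1.07 and -0.87, and between -0.28 and 0.06 in A549. The same was done for CDKN2A (209644_x_at), which had the largest difference between lines among the members when each gene was read by its brightest probe set. That rank rests on the offset, since with none the difference was 4.98 there, 5.92 for CDKN2B 236313_at and 6.17 for MTAP 231984_at. The median distance was 4.17. The nearest genes were HDAC9 (0.173), PLAAT1 (0.176), MYL4 (0.178), MTAP (0.240) and EMP1 (0.268). MTAP on probe set 231984_at was thus the fourth nearest gene, and CDKN2B was not among these 5. HDAC9, PLAAT1, MYL4 and MTAP 231984_at reached the signal minimum only through their H1299 arrays. A pattern over 4 arrays of 2 lines is a description and shows no shared control.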

How the data were processed

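Total RNA (6 ug per sample, per the labels) was made into biotinylated cRNA and hybridised to Affymetrix arrays. The deposited table holds a signal intensity on a linear scale for each probe set, computed with MAS5 according to the submitters' processing notes. No source used here gives its version, scaling or detection calls. The lowest signal was 1. Groups were taken from source names, since the treatment tag of 2 of the 4 arrays names the other siRNA. Probe sets were named through the platform annotation, 41091 of 54613 with 1 gene, and the RefSeq table (GRCh38.p14) changed 0 symbols. The offset was the 20th percentile of all signals and the filter the 50th percentile of mean signals. limma 3.58.1 in R 4.3.3 (lmFit, eBayes) fitted line and siRNA together, with 1 residual degree of freedom, to 27307 probe sets, at an adjusted p threshold of 0.05, and the procedure was tested on simulated data. Named genes were all members, list genes past the siRNA test, up to 3 per list with the largest difference between lines, CDK4, CDK6, CDK2, SKP2, 9p21 genes with a probe set, 5 genes nearest to CDKN1A and to CDKN2A, and KAT8. Genes of 1 list may be in another. Members, lists and tests were chosen with earlier results of these data known. Promoter sequences are RefSeq's (7 of the 8 genes had an entry), cut to the bases before the start. The number of arrays limits all precision. Alternatives were other offsets and filters, quantile normalization, median centring, 1 probe set per gene, leaving out _x_at probe sets, eBayes with trend, no block, and each line or siRNA alone.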

Additional observations from a re-analysis of the deposited data

How the results depend on the processing

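No member probe set passed the siRNA test in 8 of the 10 alternatives, and 1, CDKN1C 216894_x_at, passed with no filter and with an intensity trend. In the main fit its limma adjusted p was 0.0558. The stricter filter and leaving out _x_at probe sets removed that probe set, so those alternatives could not call it. The number of alternatives without a call is therefore no measure of stability. Without the block for cell line, limma called 0 of all probe sets, with 761 at an unadjusted p under 0.05, and KAT8 and each list gene reported as fallen lost its call. With 1 probe set per gene, FOXO3, SMAD3, SRM and E2F7 missed the threshold (adjusted p = 0.0504, 0.0662, 0.0551 and 0.0618), and SMAD3 also after median centring (0.0501). The MTAP probe set 211363_s_at turned from -0.017 to 0.017 after quantile normalization. Between lines, 11 member probe sets were called, but 4 with the stricter filter and 4 with 1 probe set per gene, where 6 and 7 could be tested, and 7 without the block for siRNA. In H1299, 3 member probe sets were past 2-fold with no offset, against 1 with it, and 0 in A549 under every alternative run. No share of all tested probe sets without the offset is given to set beside those 3. From each line alone, the CDKN1A ratio ran from -1.19 to -0.01. Those single-line values have no test, so they gave no count of calls. The siRNA test was itself paired by cell line.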
